A study of Mus musculus with 6 samples.

Results

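The 35 genes described here are immediate early response genes, chosen from a list of gene names and not from how they moved. All 35 were found, on 65 probe sets of the 45037 in the deposited table, by taking every probe set whose platform annotation named 1 gene and that gene a listed member. The whole table named 18193 genes in this way. RNA came from mouse embryonic stem cells of a 129SV/C57BL/6 background, knockout for Setd2 (3 arrays) or wild type (3 arrays), with no treatment in either genotype. Setd2 encodes the enzyme that trimethylates histone H3 at lysine 36 along transcribed genes. Both genotypes were grown on feeder cells, which were mostly removed before harvest, by settling on gelatin and 1 feeder-free passage. The labels do not say how the allele was made or whether a genotype stands for 1 clone. The submitters sought genes whose expression changes without Setd2 and that primitive endoderm differentiation requires. The labels number the arrays 1 to 3 within each genotype as biological repeats and do not say what a number shares. They do not state separate clones or cultures, so the p-values measure the spread between these arrays, which may in part be technical.

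Immediate early genes are switched on within minutes of a growth factor, serum or stress signal, without new protein synthesis, because the factors that drive them are already present in the cell. Extracellular signal-regulated kinase and related kinases phosphorylate the ternary complex factors that act with serum response factor on CArG boxes, and the factor CREB on cyclic AMP response elements (CREs). Their transcripts decay fast, so handling of the cells (fresh medium, detachment, replating) can also move their levels, and in embryonic stem cells several of them lie downstream of Fgf signalling.

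Values are log2 MAS5 signals, where MAS5 is the Affymetrix algorithm that summarises the probe pairs for a transcript, and a step of 1 is a doubling. A gene is represented by its brightest probe set, and 58 of the 65 probe sets, covering all 35 genes, passed the filter on dim signals, a mean of at least 5.27. Of the genes, 23 had 1 tested probe set and 12 had several. The single Setd2 probe set read 9.37, 9.50 and 9.60 in knockout cells, against 10.31, 10.30 and 10.31 in wild type cells (limma adjusted p = 0.0272). Whether this probe set lies inside the deletion is not known, since the labels leave out which exons were removed. Both arrays numbered 1 stood apart from the other 4 on the leading axis of a principal component analysis, which held 38.0% of the variance. The stem cell markers were bright in all 6 arrays, with a mean of 12.08 to 12.32 over 15 genes in knockout cells and of 12.34 to 12.58 in wild type cells. By genotype 1 of the 15 passed (6.67%, against 0.736% of all genes), Zfp42 at -1.99. By array number 6 were higher and 4 lower on the arrays numbered 1, beside 15.3% of all genes higher and 11.5% lower. In a bulk sample, fewer cells of a type and less RNA per cell cannot be told apart.

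Promoter sequences of 6 members are given because these genes carry the patterns described below. Fos, Zfp36, Nr4a1 and Btg1 passed as higher on the arrays numbered 1, although the Fos arrays overlapped, and Gadd45g passed as lower. Fosb did not pass and is shown for its spread between arrays. Each is the 250 bases before the gene's start in RefSeq (build GRCm38.p6), read 5′ to 3′ on the gene's strand. Capitals mark a CRE core (TGACG or its reverse complement CGTCA), a CArG box or a TATA box (TATAAA or its reverse complement TTTATA), searched on both strands, with no overlap between motifs in these 6 sequences.
Fos, chr12:85473640-85473889, plus strand: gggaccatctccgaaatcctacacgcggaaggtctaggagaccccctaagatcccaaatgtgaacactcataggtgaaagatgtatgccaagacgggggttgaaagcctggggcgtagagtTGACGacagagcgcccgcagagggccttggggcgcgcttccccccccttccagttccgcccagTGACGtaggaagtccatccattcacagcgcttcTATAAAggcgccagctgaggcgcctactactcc
Fosb, chr7:19310046-19310295, minus strand: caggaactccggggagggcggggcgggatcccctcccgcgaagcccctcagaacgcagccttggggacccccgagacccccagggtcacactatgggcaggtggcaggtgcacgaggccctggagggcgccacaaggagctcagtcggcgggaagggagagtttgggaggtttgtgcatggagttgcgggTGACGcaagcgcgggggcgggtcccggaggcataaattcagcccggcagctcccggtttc
Zfp36, chr7:28379229-28379478, minus strand: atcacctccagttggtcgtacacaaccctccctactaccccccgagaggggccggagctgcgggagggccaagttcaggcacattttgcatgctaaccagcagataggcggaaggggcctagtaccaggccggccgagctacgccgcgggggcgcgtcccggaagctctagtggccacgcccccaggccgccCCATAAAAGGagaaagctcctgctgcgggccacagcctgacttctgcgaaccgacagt
Nr4a1, chr15:101266596-101266845, plus strand: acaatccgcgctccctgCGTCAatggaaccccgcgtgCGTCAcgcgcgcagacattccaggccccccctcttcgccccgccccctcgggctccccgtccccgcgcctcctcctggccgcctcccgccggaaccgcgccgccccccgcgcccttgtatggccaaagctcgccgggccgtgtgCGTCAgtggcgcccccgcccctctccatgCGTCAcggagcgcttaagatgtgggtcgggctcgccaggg
Btg1, chr10:96616751-96617000, plus strand: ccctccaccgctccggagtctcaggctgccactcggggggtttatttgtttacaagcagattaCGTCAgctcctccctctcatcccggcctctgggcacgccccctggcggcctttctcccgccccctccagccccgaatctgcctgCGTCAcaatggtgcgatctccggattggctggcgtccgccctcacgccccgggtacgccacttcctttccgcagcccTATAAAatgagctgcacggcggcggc
Gadd45g, chr13:51846425-51846674, plus strand: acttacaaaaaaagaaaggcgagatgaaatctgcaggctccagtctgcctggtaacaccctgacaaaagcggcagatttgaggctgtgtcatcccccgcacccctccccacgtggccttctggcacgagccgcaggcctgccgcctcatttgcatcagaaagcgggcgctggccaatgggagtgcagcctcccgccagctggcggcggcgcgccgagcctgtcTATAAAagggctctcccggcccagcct

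Of the 28 members with an entry in the RefSeq promoter set, 17 (60.7%) held a CRE core, against 19.8% of all 27025 genes with an entry. The other 7 members, Egr1 among them, had no entry and were not analysed here. A gene counted if any of its promoters matched, and the 28 members had 43 promoters, against 32851 over the 27025 genes. A CArG box stood in Egr2, Srf and Zfp36, 3 of 28 (10.7%), against 1.62% of all genes. A TATA box stood in 10 of 28 (35.7%), against 14.3%. The Fos window held 2 CRE cores and a TATA box, and the Nr4a1 window 4 CRE cores. The Zfp36 window held a CArG box and neither other motif, and the Gadd45g window a TATA box alone. A match describes letters in the window and does not show a bound site. A motif outside the 250 bases was not searched for, so no match does not mean that a gene lacks one.

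Setd2 knockout and wild type cells were compared first. No member passed the threshold, an adjusted p of 0.05 over all tested probe sets: 0 of 35 rose and 0 fell in knockout cells (limma), against 0.736% of all 12915 genes tested. An unadjusted p under 0.05 was reached by 3 members, Ier2, Sgk1 and Arc, against 13.4% of all genes. The median difference of the members was -0.13 on the log2 scale, beside -0.00 over all genes, and 12 of 35 lay above 0, against 49.9% of all genes. With the replicate number as a block, a fit that compares knockout and wild type arrays of the same number, 1 member rose and 4 fell, 14.3% of the 35, while of all genes 9.87% passed, 4.13% higher and 5.75% lower. Without both arrays numbered 1, 2 rose and 5 fell, against 9.22% of all genes called. In a fit added after the data were seen, no member passed a test of whether its knockout minus wild type difference varied between number 1 and numbers 2 and 3 (limma interaction, adjusted p from 0.282 to 0.997 and 0 of 35 called, against 0.0232% of all genes).

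**Figure D1:**
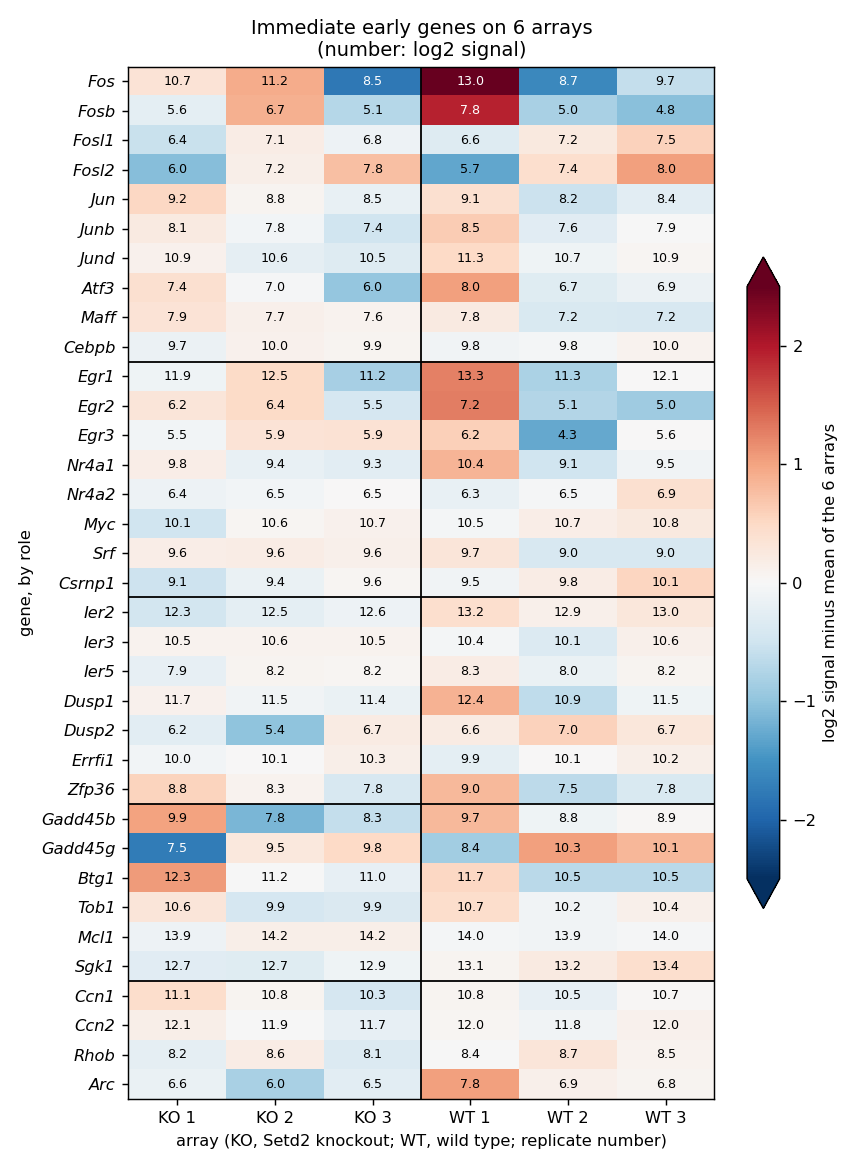
Log2 signal of each of the 35 genes (rows, grouped by role) on each array (columns, 3 Setd2 knockout at left and 3 wild type at right); the printed number is the signal and the colour its distance from that gene's mean over the 6 arrays. Fos, Fosb, Egr1 and Egr2 are brightest on wild type 1 and second on knockout 2, while Gadd45g is lowest on both arrays numbered 1.

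Fos and Fosb had the highest SD within a genotype of the 35 members, followed by Gadd45g and Fosl2, and the Egr genes also varied widely. Fos, the AP-1 subunit that pairs with Jun proteins, read 10.66, 11.25 and 8.53 in knockout cells, against 13.05, 8.70 and 9.73 in wild type cells. The highest and the lowest array were 23-fold apart and belonged to different genotypes, and the groups overlapped over most of that span. The knockout minus wild type difference of Fos was -0.35 with a 95% interval of -2.83 to 2.13 (limma adjusted p = 0.945), so these arrays leave room for a change of more than 4-fold in either direction. Within array numbers the difference was -2.39 for number 1, 2.54 for number 2 and -1.20 for number 3, and changed sign. The within genotype SD of Fos, 1.90, lay at the 99.99th percentile of all genes.

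Egr1, a zinc finger factor induced through Erk, read 11.94, 12.52 and 11.21 in knockout cells, against 13.30, 11.26 and 12.06 in wild type cells. It was bright on every array, and its groups overlapped too, with a difference of -0.31 (interval -1.45 to 0.82). Fosb, the close relative of Fos, read 5.60, 6.74 and 5.12 in knockout cells, against 7.75, 5.03 and 4.80 in wild type cells. Egr2, which shares the zinc finger domain of Egr1, read 6.20, 6.35 and 5.47 in knockout cells, against 7.16, 5.14 and 4.99 in wild type cells. Both genes lay near the filter value of 5.27 on several arrays, where MAS5 signals are least certain. Egr3 was as dim, with 5.51, 5.92 and 5.94 in knockout cells against 6.18, 4.30 and 5.59 in wild type cells, and its other tested probe set differed by -0.76 where this one differed by 0.44, neither past the threshold. The order of arrays was alike among these genes: Fos, Fosb, Egr1, Egr2, Srf and Ier5 were highest on wild type 1 and second on knockout 2, 6 of 35 members against 1.83% of all genes, a pattern chosen after the values were seen. This order follows neither genotype nor array number. At Srf and Ier5 the second place was close to a tie. Srf read 9.61 on knockout 2 and 9.60 on knockout 1, and Ier5 read 8.21 on knockout 2 and 8.19 on wild type 3.

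**Figure D2:**
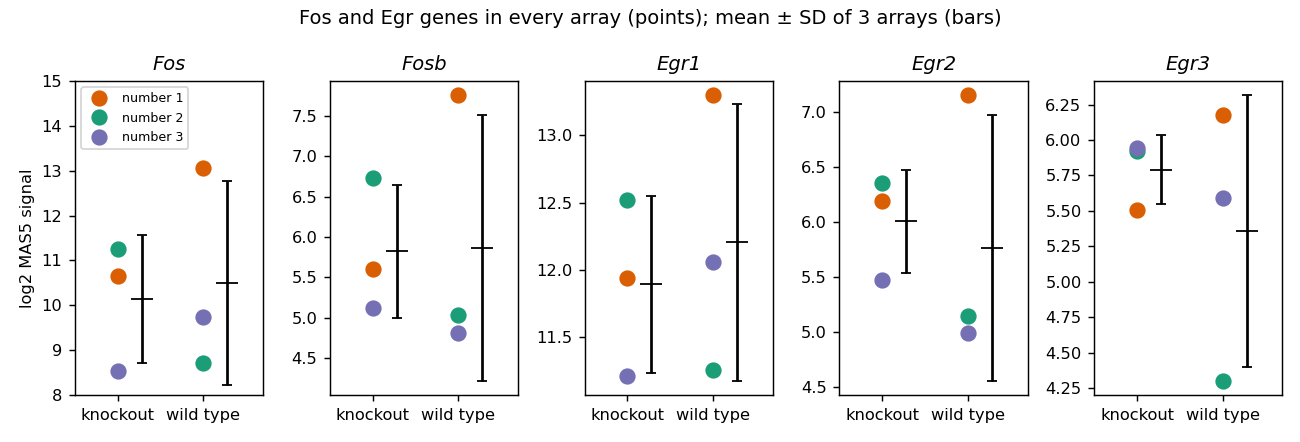
Log2 signal of 5 genes on each array (points, coloured by replicate number; knockout left and wild type right in each panel), with the mean and SD of 3 arrays as a bar beside them; each panel has its own axis. Knockout and wild type points overlap in every panel, and wild type 1 is the highest point in all 5.

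More widely, the spread of these genes was large for the array. The range over the 6 arrays reached 2 log2 units, a factor of 4, in 8 of 35 members, against 4.58% of all genes, and 1 unit in 19, against 27.8%. The median range was 1.06 for the members and 0.68 for all genes. The median SD within a genotype was 0.42 for the members, beside 0.23 for all genes. Wild type 1 was the highest array for 16 of 35 members, against 19.1% of all genes, while knockout 1 was the highest for 6, against 27.4%.

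The second comparison set both arrays numbered 1 against the 4 numbered 2 and 3, with genotype in the fit. This split was picked because earlier results had shown these 2 arrays standing apart, so its p-values describe the split and are no independent evidence for it. In it 11 members were higher on the arrays numbered 1 and 5 were lower, in all 45.7% of the members. Of all genes 26.8% passed, 15.3% higher and 11.5% lower. The count of 16 was 3 without the intensity trend in the variance, 7 without the genotype term and 8 without wild type 1. The shares of all genes under these settings are not given here, so these counts do not set the members apart from other genes. An F test over the 3 numbers, which singles out no number, called 12 members (34.3%) against 17.4% of all genes. All number 1 values lay on one side of the other 4 arrays for 18 members, 11 above and 7 below, against 40.5% of all genes, 23.6% above and 16.9% below. The median difference was 0.39 for the members and 0.05 for all genes.

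**Figure D3:**
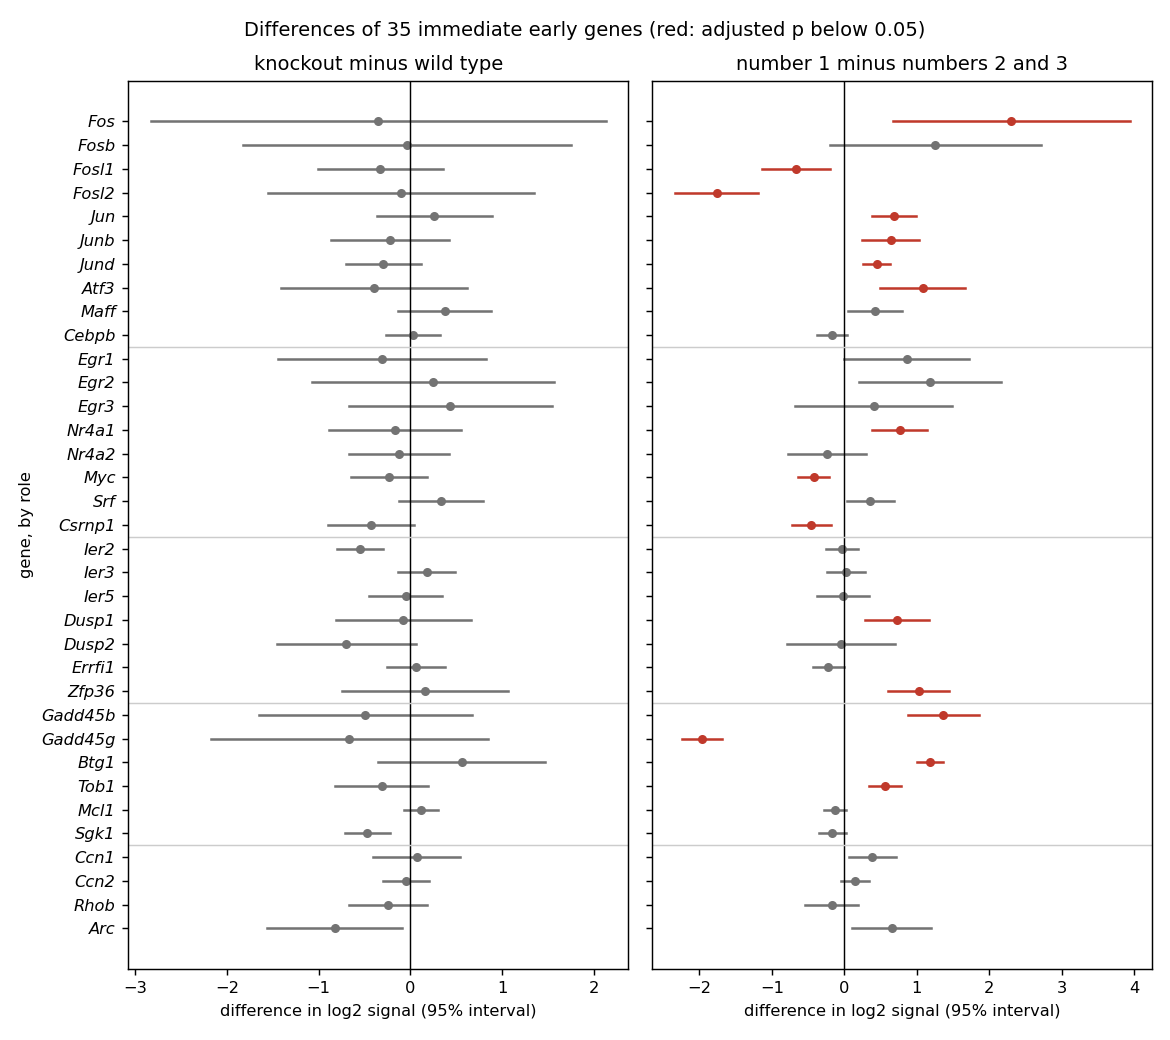
Difference in log2 signal of each gene (point) with its 95% interval from limma (line), for knockout minus wild type at left and number 1 minus numbers 2 and 3 at right; red marks an adjusted p below 0.05. At left none of the 35 is red; at right 11 red genes lie above 0 and 5 below.

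Among the 10 AP-1 and related leucine zipper genes, 5 were higher on the arrays numbered 1 and 2 were lower, beside 15.3% of all genes higher and 11.5% lower. Atf3, a stress-induced repressor and activator, read 7.42 in knockout and 8.04 in wild type cells on number 1, against 6.98 and 6.04 in knockout and 6.71 and 6.87 in wild type cells on numbers 2 and 3. The arrays numbered 1 lay above the others, and the difference was 1.08 ± 0.26 (SE; limma adjusted p = 0.0166). Jun, the DNA-binding partner of Fos, read 9.20 and 9.10 on the knockout and wild type arrays numbered 1, against 8.77 and 8.51 in knockout and 8.16 and 8.43 in wild type cells on the others, a difference of 0.68 ± 0.14 (adjusted p = 0.00675). A second Jun probe set differed by 0.23 and did not pass (0.480). Junb, a relative of Jun, read 8.10 and 8.51 on the knockout and wild type arrays numbered 1, against 7.82 and 7.38 in knockout and 7.60 and 7.87 in wild type cells on the others. The groups were apart. Junb and its relative Jund, given below, differed by 0.64 and 0.44 (adjusted p = 0.0283 and 0.00503). Fos differed by 2.30 ± 0.74 (adjusted p = 0.0493), but its groups overlapped, since knockout 2 read above knockout 1.

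Fosl2, the Fos-related antigen gene, went the other way. It read 5.95 and 5.72 on the knockout and wild type arrays numbered 1, against 7.16 and 7.76 in knockout and 7.44 and 8.03 in wild type cells on the others, so the groups were apart. The signal on number 1 was 3.39-fold lower (difference -1.76 ± 0.26, limma adjusted p = 0.00143), while a second Fosl2 probe set differed by 0.30 and did not pass. Fosl1, another Fos-related antigen gene, read 6.38 and 6.62 on the knockout and wild type arrays numbered 1, against 7.14 and 6.83 in knockout and 7.18 and 7.52 in wild type cells on the others. The arrays numbered 1 were lower, and Fosl1 differed by -0.67 (adjusted p = 0.0465), while its second probe set differed by -0.44 and did not pass (0.431). Maff, a small Maf protein gene, read 7.89, 7.68 and 7.65 in knockout cells, against 7.78, 7.16 and 7.15 in wild type cells. By array number Fosb differed by 1.25, Maff by 0.43 and the leucine zipper gene Cebpb by -0.17, none past the threshold.

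These calls rested on single arrays to different degrees. Without wild type 1, calls were lost for Fos (difference 0.77, limma adjusted p = 0.577), Jun (0.0711), Junb (0.210), Jund (0.0516) and Atf3 (0.143). Leaving out either array numbered 1 leaves a single one, which is then assumed to vary like the other arrays. Without knockout 1, Fos differed by 3.83 and kept its call, while Junb (0.0884) and Atf3 (0.0770) lost theirs. Fos also lost its call without knockout 3, wild type 2 or wild type 3 (0.133, 0.107 and 0.0883), and Junb without knockout 3 or wild type 2 (0.0726 and 0.0764). Fosl1 lost its call without any 1 of the 6 arrays (0.0548 to 0.197), and Fosl2 kept its call without each. Fos, Fosl1 and Junb did not pass the F test over the 3 numbers (0.0946, 0.162 and 0.0967).

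By genotype the AP-1 genes gave no call in either fit. Junb, Jund and Ier2 lie on chromosome 8, where the 709 genes tested had a median knockout minus wild type difference of -0.34 and 13.7% lay above 0. Jund read 10.92, 10.59 and 10.51 in knockout cells, against 11.32, 10.72 and 10.87 in wild type cells, a difference of -0.29 (interval -0.70 to 0.11; adjusted p = 0.598, and 0.0632 with the block). That is close to the chromosome's median, as is the -0.23 of Junb. A difference by genotype at these genes cannot be told apart from one along chromosome 8.

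Among the 8 Egr, nuclear receptor and other transcription factor genes, 1 was higher on the arrays numbered 1 and 2 were lower, beside 15.3% of all genes higher and 11.5% lower. Nr4a1, an orphan nuclear receptor induced by many stimuli, read 9.76 and 10.42 on the knockout and wild type arrays numbered 1, against 9.40 and 9.33 in knockout and 9.07 and 9.50 in wild type cells on the others, with the groups apart. Its difference of 0.76 ± 0.17 (limma adjusted p = 0.0107) shrank to 0.39 without wild type 1, and the call was lost (0.169). Myc, a growth-promoting transcription factor, read 10.05 and 10.51 on the knockout and wild type arrays numbered 1, against 10.60 and 10.67 in knockout and 10.72 and 10.81 in wild type cells on the others. The arrays numbered 1 lay below the others. Myc differed by -0.42 (0.0118) and lost its call without knockout 1 (difference -0.26, adjusted p = 0.183). Csrnp1, an Axin-induced nuclear protein gene, read 9.07 and 9.50 on the knockout and wild type arrays numbered 1, against 9.41 and 9.63 in knockout and 9.78 and 10.13 in wild type cells on the others. The groups overlapped at this gene, and its difference of -0.45 (0.0248) lost its call without knockout 1 or 3 or wild type 1 or 3 (0.0678 to 0.139).

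Egr1 and Egr2 differed by 0.86 and 1.19 between number 1 and the others and did not pass (limma adjusted p = 0.144 and 0.0825). Without knockout 2 both did, at 1.25 and 1.50 (0.00707 and 0.0303), and without knockout 1, where wild type 1 alone stands for number 1, at 1.64 and 2.09 (0.0495 and 0.0351). Fosb also passed without either of these arrays, at 1.83 without knockout 2 and 2.84 without knockout 1 (0.0395 and 0.0253). Without wild type 1 the differences of Egr1, Egr2 and Fosb were 0.08, 0.28 and -0.33. Egr3 differed by 0.40 and the nuclear receptor gene Nr4a2 by -0.23, and none of the 5 tested probe sets of Nr4a2 passed in either comparison. By genotype Csrnp1 fell with the block, by 0.43 on the log2 scale (adjusted p = 0.0231; 0.476 without it), with knockout below wild type within every number. Srf, the factor that binds CArG boxes, read 9.60, 9.61 and 9.56 in knockout cells, against 9.73, 9.02 and 9.03 in wild type cells. Its difference of 0.33 did not pass with or without the block, and it was higher without both arrays numbered 1 (0.56, adjusted p = 0.0146), where wild type 1 is left out.

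Among the 7 Ier genes and feedback inhibitors, 2 were higher on the arrays numbered 1 and 0 were lower, a share close to the 26.8% of all genes called. Zfp36 (tristetraprolin), which binds AU-rich messages and speeds their decay, read 8.76 and 9.01 on the knockout and wild type arrays numbered 1, against 8.29 and 7.79 in knockout and 7.54 and 7.82 in wild type cells on the others. The groups were apart and the signal 2.03-fold higher on number 1 (limma adjusted p = 0.00465). Dusp1, the phosphatase that switches off Mapk family kinases, read 11.70 and 12.45 on the knockout and wild type arrays numbered 1, against 11.51 and 11.43 in knockout and 10.94 and 11.48 in wild type cells on the others, a difference of 0.73 (adjusted p = 0.0256; 0.0547 in the F test). Without wild type 1 both calls were lost, at 0.72 for Zfp36 (0.0727) and 0.24 for Dusp1 (0.415), and without knockout 1 Dusp1 differed by 1.23.

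Ier2, a short nuclear protein gene and one of the brightest members, showed the clearest order by genotype. It read 12.30, 12.50 and 12.63 in knockout cells, against 13.16, 12.87 and 13.04 in wild type cells. Every knockout array lay below every wild type array. The knockout arrays lay all on one side of the wild type arrays, above or below, for 3 of 35 members, against 19.2% of all genes. At Ier2 the difference was -0.55 ± 0.11 (SE; limma adjusted p = 0.0824), past the threshold with the block (0.00493). The gene lies on chromosome 8, where 38.1% of the genes tested passed with the block, all of them lower. Ier3 differed by 0.18, Ier5 by -0.05, the phosphatase gene Dusp2 by -0.70 and the Egf receptor inhibitor gene Errfi1 by 0.06 between genotypes, none past the threshold with or without the block. Dusp2, the one with the widest difference, read 6.18, 5.45 and 6.66 in knockout cells, against 6.65, 7.01 and 6.72 in wild type cells, and its groups overlapped. By array number Ier2 and these 4 genes differed by -0.22 to 0.02.

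Among the 6 growth arrest, stress and survival genes, 3 were higher on the arrays numbered 1 and 1 was lower, beside 15.3% of all genes higher and 11.5% lower. Btg1, an antiproliferative gene, read 12.28 and 11.72 on the knockout and wild type arrays numbered 1, against 11.21 and 11.00 in knockout and 10.54 and 10.54 in wild type cells on the others. The arrays numbered 1 lay above the rest by 1.18 ± 0.08 (SE; limma adjusted p = 9.44e-05), and a second probe set differed by 1.16 (0.000316). Gadd45g, a stress-induced activator of p38 and Jnk signalling, read 7.51 and 8.40 on the knockout and wild type arrays numbered 1, against 9.54 and 9.75 in knockout and 10.29 and 10.10 in wild type cells on the others. Its signal was 3.91-fold lower on number 1 (adjusted p = 6.84e-05). Its paralog Gadd45b went the other way, with 9.92 and 9.72 on the knockout and wild type arrays numbered 1, against 7.76 and 8.31 in knockout and 8.80 and 8.94 in wild type cells on the others. That was 2.58-fold higher on number 1 (0.00236), and of its other tested probe sets one passed at 0.88 (0.0401) and one did not at 0.64 (0.222). Btg1, Gadd45g, Gadd45b and Fosl2 were the 4 of 16 called members that kept their call without each array, with Gadd45b at 0.85 (adjusted p = 0.0466) without knockout 1.

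Tob1, a relative of Btg1, read 10.60 and 10.72 on the knockout and wild type arrays numbered 1, against 9.87 and 9.92 in knockout and 10.19 and 10.41 in wild type cells on the others. The groups were apart. Tob1 differed by 0.56 (limma adjusted p = 0.00395) and lost its call without knockout 1 (0.0756). Mcl1, an antiapoptotic Bcl2 family gene and the brightest member, gave different answers by probe set. Its brightest probe set differed by -0.13 between number 1 and the others and did not pass, while 4 of its other 5 probe sets passed at 0.32 to 0.39. Sgk1, a serum and glucocorticoid regulated kinase gene, differed by -0.16 and did not pass.

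Of these 6 genes, Btg1, Gadd45g and Sgk1 passed between genotypes with the block, a fit in which 9.87% of all genes passed. Btg1 was higher in knockout cells by 0.55, 0.66 and 0.46 within numbers 1, 2 and 3. Its difference of 0.56 missed the threshold without the block (limma adjusted p = 0.670) and passed with it (0.00182). The second Btg1 probe set also passed with the block (0.0106), and the remaining, dimmer one differed by -0.42 and did not. Gadd45g differed by -0.89, -0.75 and -0.35 within the 3 numbers (adjusted p = 0.778, and 0.00943 with the block). Sgk1 read 12.72, 12.68 and 12.88 in knockout cells, against 13.06, 13.21 and 13.42 in wild type cells, with the groups apart. It fell by 0.47 on the log2 scale in the fit with the block (0.00179; 0.117 without it), and it does not lie on chromosome 8. Gadd45b and Tob1 missed the threshold in both fits (0.166 and 0.0770 with the block) and were lower without both arrays numbered 1 (-0.84 and -0.41, adjusted p = 0.0249 and 0.0480).

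None of the 4 secreted, cytoskeletal and synaptic genes passed in either comparison. The matricellular genes Ccn1 (Cyr61) and Ccn2 (Ctgf), targets of Yap and of serum response factor, differed by 0.07 and -0.05 between genotypes. Ccn1 read 11.15, 10.78 and 10.28 in knockout cells, against 10.77, 10.50 and 10.73 in wild type cells, which overlapped. The intervals of the Ccn1 and Ccn2 differences were -0.41 to 0.54 and -0.30 to 0.21. Another Ccn1 probe set had a slightly narrower interval, -0.36 to 0.49. Those of the remaining Ccn1 probe sets were wider, and the lowest bound was -1.10. Rhob, a small GTPase gene, read 8.20, 8.61 and 8.08 in knockout cells, against 8.40, 8.71 and 8.50 in wild type cells, and differed by -0.25 without passing. Arc, known as an activity-induced gene of neurons, read 6.61, 5.96 and 6.50 in knockout cells, against 7.80, 6.90 and 6.84 in wild type cells. Every knockout array lay below every wild type array, and the difference of -0.82 (interval -1.56 to -0.09) missed the threshold (limma adjusted p = 0.364, and 0.0632 with the block). By array number Ccn1, Ccn2, Rhob and Arc differed by 0.39, 0.15, -0.18 and 0.66.

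Other early response genes, outside the member list, split by array number too. Of 45 tested, 18 were higher and 11 lower on the arrays numbered 1 (64.4%), against 26.8% of all genes, 15.3% higher and 11.5% lower. The largest differences above 0 were in the bZIP repressor gene Nfil3 at 1.35, the inhibitor of DNA binding Id1 at 1.01, the stress factor Ddit3 at 1.00 and the mTOR inhibitor gene Ddit4 at 0.94. The largest below 0 were in genes of secreted and inflammatory products: the chemokines Ccl2 at -2.05 and Cxcl1 at -1.59, the cyclooxygenase Ptgs2 at -1.57 and the matrix protein Thbs1 at -1.36 (limma adjusted p from 0.000103 to 0.0112 over these 8 genes). By genotype 1 fell (2.22%, against 0.736% of all genes), Phlda1, a target of Erk, by 0.94 on the log2 scale (adjusted p = 0.0358). With the block 3 rose and 7 fell (22.2%), against 9.87% of all genes, 4.13% higher and 5.75% lower. Those that fell include Klf2, which lies on chromosome 8, where 38.1% of the genes tested passed with the block, all of them lower. Dusp4, another of the 45 on chromosome 8, differed by -0.75 between genotypes. Of 26 tested genes of the pathway upstream (10 of the 36 listed were not analysed here), 2 were higher on the arrays numbered 1 (7.69%), below the 26.8% of all genes called. These were the kinase genes Map3k1 at 0.88 and Rps6ka3 at 0.48. With any tested probe set of a gene counted, 5 were higher and 4 lower, and the share of all genes counted so is not given here. By genotype 0 of the 26 upstream genes passed, and the brightest of them, the kinase genes Mapk14 and Map2k1, differed by -0.15 and -0.08. With the block Nras and the exchange factor gene Sos1 rose, by 0.38 and 0.42, a share of 7.69%, below the 9.87% of all genes.

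Feeder cell markers moved with array number. Of 27 tested fibroblast markers, 16 were lower and 2 higher on the arrays numbered 1, beside 11.5% of all genes lower and 15.3% higher, with a median difference of -1.08. Their summed signal was 21375 and 21989 on the knockout and wild type arrays numbered 1, against 34222 and 33279 in knockout and 29882 and 36743 in wild type cells on the others. None read 0 on any array. By genotype 0 of 27 passed, and with the block 2 were higher and 1 lower (11.1%), close to the 9.87% of all genes. Members lower on the arrays numbered 1 moved with these markers and members higher on them moved against them, and the part of feeder cells in either was not tested. Over the 35 members the mean level was 9.22, 9.24 and 9.05 in knockout cells and 9.64, 9.02 and 9.25 in wild type cells.

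**Figure D4:**
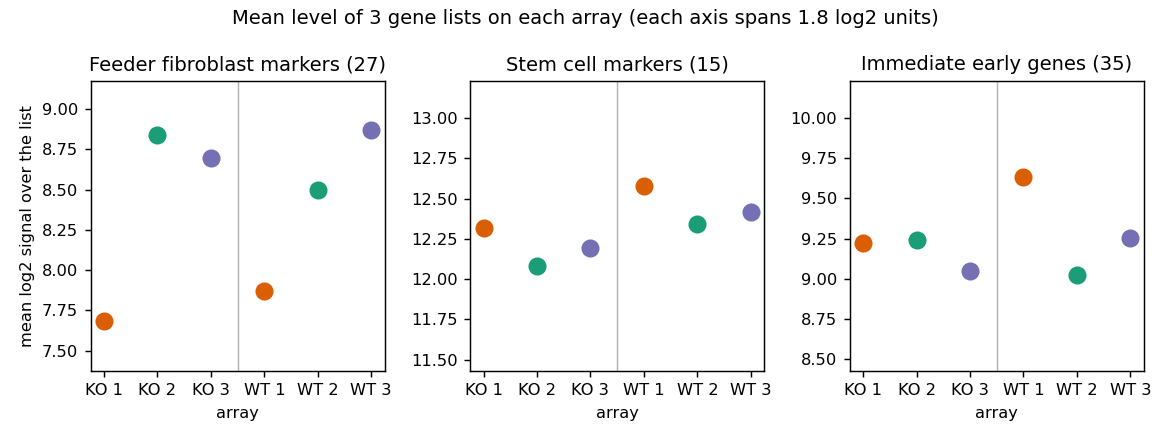
Mean log2 signal over 27 feeder fibroblast markers, 15 stem cell markers and the 35 immediate early genes on each array (points; knockout left, wild type right; orange number 1, green number 2, purple number 3). Feeder markers are lowest on both arrays numbered 1, while the immediate early genes are highest on wild type 1.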

How the data were processed

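Per the submitters' processing notes the authors made the values with MAS5, whose version is not given in the sources used here. The deposited table was taken as log2 signals, since 2 raised to each value had a 2% trimmed mean between 497.0 and 497.3 on every array, and no further normalization was applied. Arrays have no read depth, and their number limits the precision. Detection calls were not used here. Gene names are those of the platform annotation, updated against a RefSeq table of GRCm38.p6 (34945 probe sets naming 1 gene, 932 several, 9160 unnamed here). Probe sets under the 40th percentile of mean log2 (5.27) were left out, leaving 27022 probe sets and 12915 genes, each at its brightest probe set. Tests used limma 3.58.1 under R 4.3.3 (intensity trend, two-sided, Benjamini-Hochberg over all probe sets tested). The fit was also run on simulated arrays with independent noise and known shifts. These lacked the likeness of same-number arrays and the spread of the most variable genes, so the run does not show how the fit performs here.

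The members, the lists, the comparisons and the alternatives were chosen with earlier results of these data known. Every member is accounted for; per-array values are given for those past the threshold or with the largest differences of their role, and of the other lists up to 4 genes per comparison and direction. Deviations from the genotype means correlated across probe sets at r = 0.50, 0.23 and 0.24 between arrays of the same number, and at -0.37 to 0.23 between arrays of unlike number. The 3 same-number values exceeded the bound set for pairing, so values with the replicate number as a block stand beside the results they change. Only number 1 stood out as a pair, however. Knockout 3 correlated with wild type 2 at 0.230, about as much as the same-number pairs of numbers 2 and 3, and knockout 2 with wild type 3 at 0.169. Promoters are RefSeq's.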

Additional observations from a re-analysis of the deposited data

How the results depend on the processing

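The count of 0 members called between genotypes held without the filter on dim probe sets, without the intensity trend, under quantile normalization, under median centring, without each single array, with any probe set of a gene counted and without chromosomes 8 and Y. It was 5 with the replicate block and 7 without both arrays numbered 1. For the other early response genes the count of 1 was 0 without the intensity trend, 10 with the replicate block, 7 without both arrays numbered 1 and 0 to 1 without single arrays, with knockout 1 the array whose removal left it at 1. For the upstream genes the count of 0 was 2 with the replicate block and 1 without both arrays numbered 1, and 0 without any single array. Of all genes 9.87% passed with the replicate block and 9.22% without both arrays numbered 1. The shares under the other settings are not given here.

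Between number 1 and numbers 2 and 3, the 16 members called were 3 without the intensity trend, 7 without the genotype term and 8 to 18 without single arrays, the lowest without wild type 1. The 29 other early response genes were 13 without the trend and 18 to 28 without single arrays, the lowest without knockout 1. The 2 upstream genes were 1 without the trend, 1 without the genotype term, 9 with any probe set counted and 1 to 3 without single arrays. Shares of all genes under these settings are not given here, so these counts do not set any of the lists apart from other genes. Mcl1 reversed, to 0.32, when its probe set with the smallest p was taken. The cause of these shifts was not tested. With 3 arrays per genotype, intervals at the most variable genes span several log2 units.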
